A study of Mus musculus with 55 samples.

Results

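*H19*, *Igf2*, *Dlk1*, *Meg3*, *Rian*, *Mirg* and *Rasgrf1* lie in the imprinted domains whose controlling methylation is set in sperm rather than in the oocyte. These 7 genes were taken by name from 51734 genes in the oocyte tables and from 24421 genes in the embryo tables. The study changed the ADD domain, the part of DNMT3A and DNMT3L that reads the tail of histone H3, and measured RNA in oocytes and in embryos made from mutant oocytes. The study also measured DNA methylation in oocytes and spermatozoa, which does not enter here. Its 55 RNA samples are 52 single oocytes and 3 embryos, and all of them enter the results here.

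The 42 fully grown oocytes (FGOs) came from adult ovaries. They comprised 18 wild-type FGOs, 8 *Dnmt3L* ADD/ADD FGOs (genotype Dnmt3LD124A/D124A with wild-type *Dnmt3a*), 8 *Dnmt3a* ADD/ADD FGOs (Dnmt3aADA/ADA with wild-type *Dnmt3L*) and 8 double mutant FGOs homozygous for both changes. A further 10 libraries came from mature wild-type oocytes arrested in metaphase II (MII). The 3 embryos, labelled as embryonic day 9, came from double mutant oocytes fertilized in vitro with wild-type JF1 sperm, so each embryo carried the mutations on its maternal alleles. Maternal and paternal reads were told apart by strain differences, and with no reciprocal cross the parent of origin and the strain cannot be told apart. The labels give no animal for any oocyte, so p-values measure the spread between libraries, and some of that spread may be technical. The total count was 7832458 to 23739871 per oocyte, and 7534598, 8547786 and 6998944 counts were assigned to an allele in embryos 1, 2 and 3.

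In an imprinted domain, a control region methylated on only 1 parental chromosome decides which allele of each gene is used. At *H19*-*Igf2* the unmethylated maternal region binds CTCF, which insulates *Igf2* from shared enhancers, so *H19* is made from the maternal chromosome and *Igf2* from the paternal one. At *Dlk1*-*Meg3* the methylated paternal region goes with expression of *Dlk1*, while *Meg3*, *Rian* and *Mirg* are made from the maternal chromosome. *Rasgrf1* is paternally expressed in the neonatal brain. In all of these domains the oocyte copy of the control region normally stays unmethylated.

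In the coordinates of the deposited tables (mm10), *H19* lies at chr7:142575529-142578143 and *Igf2* at chr7:142650766-142666816, both on the minus strand. *Dlk1* (chr12:109452823-109463336), *Meg3* (chr12:109541001-109571726), *Rian* (chr12:109603940-109661716) and *Mirg* (chr12:109729764-109749460) follow each other on the plus strand. *Rasgrf1* lies on the plus strand at chr9:89909908-90026977. *Igf2os* overlaps *Igf2* on the other strand, and since the strand setting of the counting is not given in the sources used here, reads of that pair cannot be told apart.

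The noncoding members and the protein-coding *Igf2* are also hosts of small RNAs. RefSeq (GRCm38.p6) places 2 mature miRNAs inside *H19*, 2 inside *Igf2*, 3 inside *Meg3*, 6 inside *Rian* and 26 inside *Mirg*. The 4 of the *H19*-*Igf2* domain are shown because they come from *H19* and *Igf2*, the members with the widest spread of allelic use between embryos. Capitals mark the seed (bases 2 to 8), the stretch that pairs with targets, and no 2 of the 4 share a seed.
miR-675-5p (in *H19*): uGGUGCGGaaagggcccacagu
miR-675-3p (in *H19*): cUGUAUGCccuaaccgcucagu
miR-483-5p (in *Igf2*): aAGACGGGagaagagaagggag
miR-483-3p (in *Igf2*): uCACUCCUccccucccgucuu
On the minus strand they lie at chr7:142577112-142577133 and chr7:142577078-142577099 in *H19*, and at chr7:142654968-142654989 and chr7:142654932-142654952 in *Igf2*. The libraries were made for long RNA and did not measure mature miRNAs, and *Mir675* and *Mir483* had 0 allelic counts in every embryo.

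The promoters of *Dlk1* and *Meg3* are shown because these neighbours were read from opposite parental chromosomes in every embryo. Each window runs from 250 bases before the start site to 50 after it (RefSeq, GRCm38.p6, plus strand), with CpG dinucleotides, the sites of methylation, in capitals.
*Dlk1*, chr12:109452573-109452872: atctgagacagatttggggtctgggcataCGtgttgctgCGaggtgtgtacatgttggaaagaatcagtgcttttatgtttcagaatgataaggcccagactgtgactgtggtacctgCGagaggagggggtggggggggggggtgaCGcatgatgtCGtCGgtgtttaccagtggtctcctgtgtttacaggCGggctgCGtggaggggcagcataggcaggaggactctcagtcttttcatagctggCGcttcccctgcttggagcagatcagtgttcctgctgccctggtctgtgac
*Meg3*, chr12:109540746-109541045: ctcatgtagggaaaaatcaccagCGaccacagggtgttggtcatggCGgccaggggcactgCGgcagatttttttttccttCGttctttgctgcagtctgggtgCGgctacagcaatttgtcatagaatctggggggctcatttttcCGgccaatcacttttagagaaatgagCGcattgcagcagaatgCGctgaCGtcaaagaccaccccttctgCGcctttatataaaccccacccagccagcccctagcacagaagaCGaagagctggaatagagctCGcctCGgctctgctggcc
The *Dlk1* window holds 9 CpGs and the *Meg3* window shown 13, against a median of 7 over 32851 promoter windows. The 6 letters TGCCGC, the motif bound by ZFP57 when methylated, were searched on both strands (GCGGCA on the other). They occur 1 time in the *Meg3* window shown and 0 times in that of *Dlk1*, and 11.6% of all windows hold at least 1 copy. A second annotated start of *Meg3* (window chr12:109545148-109545447) holds 1 CpG and 0 copies of the motif. Promoters were found for 6 of the 7 genes, all but *H19*.

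In the embryos, all 6 genes with enough allelic counts were read mostly from the chromosome that normally expresses them. The maternal share averaged 90.1% ± 12.8 (SD, n = 3) for *H19*, 99.1% ± 1.33 for *Meg3*, 99.0% ± 1.12 for *Rian* and 96.8% ± 3.31 for *Mirg*. It averaged 4.85% ± 6.05 for *Igf2* and 9.93% ± 3.03 for *Dlk1*. *Rasgrf1* had 0, 1 and 1 allelic counts in the 3 embryos, which is too few to give a share. Intervals below are 95% Wilson intervals for single embryos and cover counting error only. No wild-type embryo was analysed here, so the embryo shares have no control beside them.

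**Figure D1:**
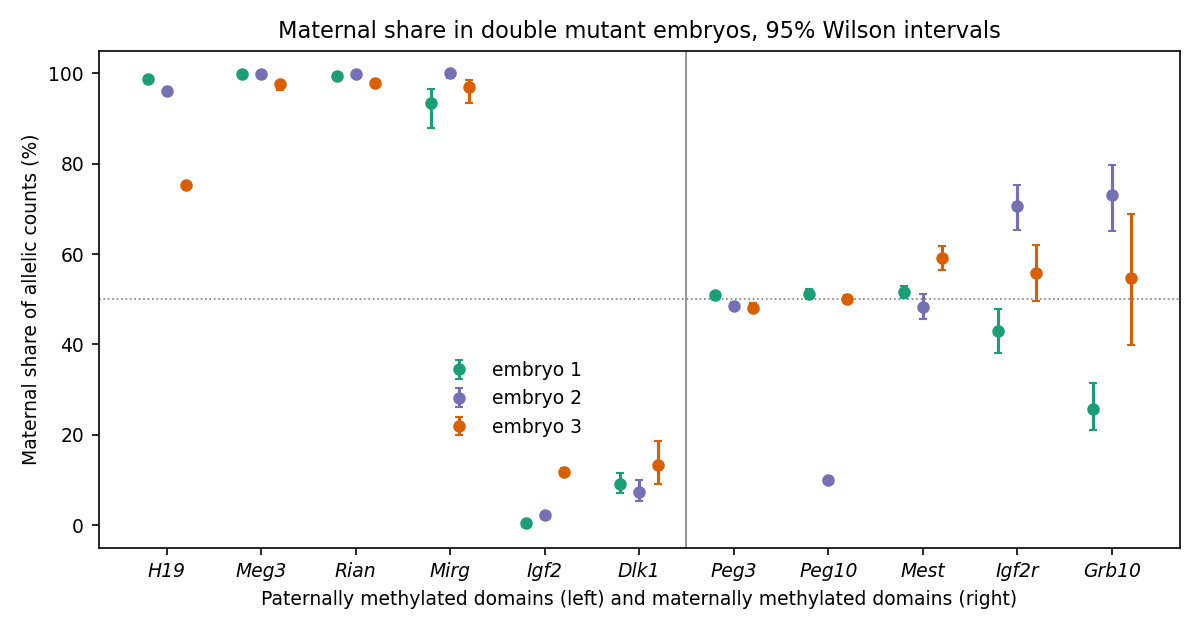
Maternal share of allelic counts (percent, vertical axis) for 6 genes of paternally methylated domains (left) and 5 genes of maternally methylated domains (right), 1 point per embryo with its 95% Wilson interval. The left genes lie near the top or the bottom, with embryo 3 of *H19* at 75.4%, while *Peg3* lies between 48.1% and 50.9% in every embryo.

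*H19*, a maternally expressed noncoding RNA that restrains growth, was the member whose share differed most between embryos. Embryo 1 had 30285 maternal and 356 paternal counts, a paternal share of 1.16% (1.05 to 1.29). Embryo 2 had 47813 and 1949, a paternal share of 3.92% (3.75 to 4.09). Embryo 3 had 24796 and 8077, a paternal share of 24.6% (24.1 to 25.0). None of these intervals overlap, and embryo 3 stood apart from the other two. Without embryo 3 the mean maternal share of *H19* was 97.5%. In allelic CPM, counts scaled to the total of both alleles in the embryo, the paternal allele of *H19* gave 47.2, 228 and 1154, and the maternal allele 4019.5, 5594 and 3543. The paternal allele was thus highest in embryo 3, where the maternal allele was lowest.

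*Igf2* encodes a growth factor of the embryo and placenta, read from the paternal chromosome. Its maternal share was 0.488% (0.377 to 0.631) in embryo 1, from 57 of 11689 counts. It was 2.31% (2.04 to 2.61) in embryo 2, from 246 of 10654, and 11.8% (10.9 to 12.6) in embryo 3, from 625 of 5319. The embryos therefore took the same order as for the paternal share of *H19*, and without embryo 3 the mean maternal share of *Igf2* was 1.4%. The maternal allele of *Igf2* gave 7.57, 28.8 and 89.3 allelic CPM, and the paternal allele 1544, 1218 and 671. Embryo 3 thus had the highest level of the maternal allele and the lowest level of the paternal allele. *Igf2os*, which overlaps *Igf2*, had 0 of 130, 7 of 247 and 31 of 124 counts from the maternal allele, or 25.0% (18.2 to 33.3) in embryo 3.

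**Figure D2:**
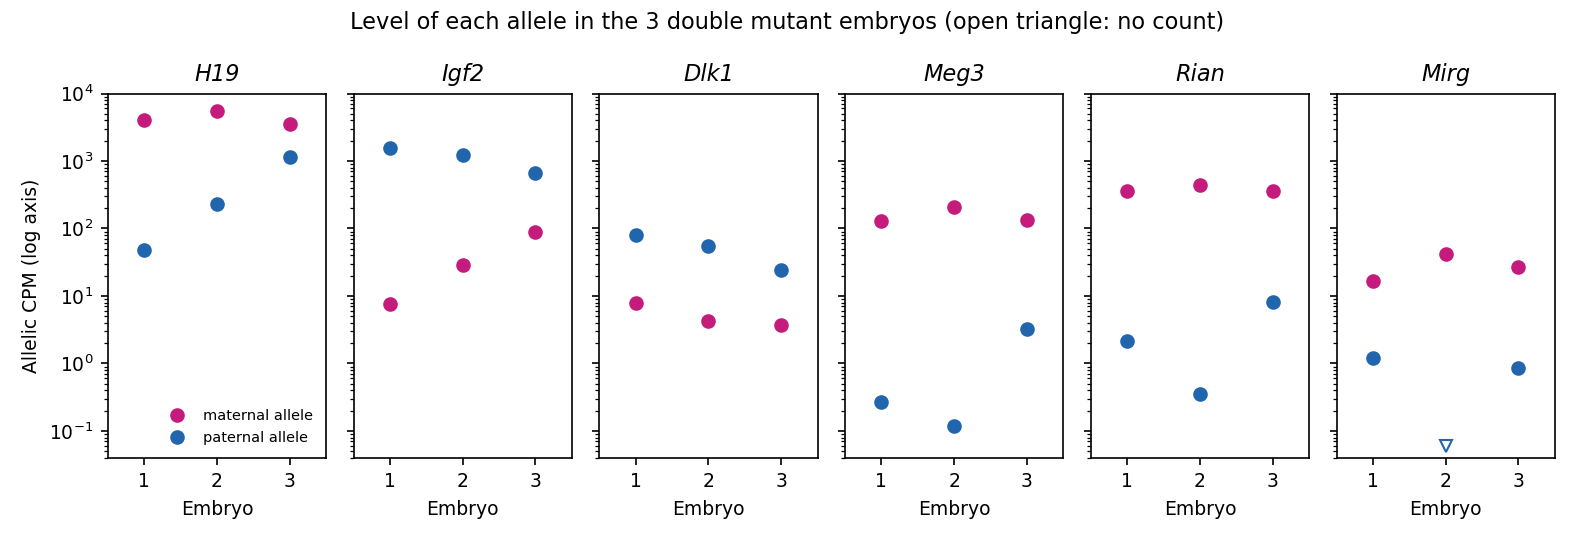
Allelic CPM (log axis) of the maternal and the paternal allele of 6 genes in embryos 1, 2 and 3; an open triangle marks an allele with no count. In embryo 3 the less used allele of *H19* reached 1154 allelic CPM and that of *Igf2* 89.3, each the highest of the 3 embryos.

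*Dlk1*, a membrane protein related to the Notch ligands and made from the paternal chromosome, had 60, 37 and 26 maternal counts of 654, 504 and 196. Its maternal share was 9.17% (7.19 to 11.6), 7.34% (5.37 to 9.96) and 13.3% (9.22 to 18.7). These 3 intervals overlap one another. The total of both alleles was 86.8, 59.0 and 28.0 allelic CPM, lowest in embryo 3. *Rtl1*, a paternally expressed gene derived from a retrotransposon that lies between *Meg3* and *Rian*, had 0 maternal counts of 20, 8 and 14. By the limit of 3 counts of the total, 0 of 20 allows a maternal share of up to 15%, and the limits are wider in the other embryos.

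*Meg3*, the first of the maternally expressed noncoding RNAs of the domain, had 2, 1 and 23 paternal counts of 964, 1763 and 946. Its paternal share was 0.207% (0.0569 to 0.753), 0.0567% (0.01 to 0.321) and 2.43% (1.63 to 3.62). *Rian*, host of box C/D small nucleolar RNAs, had 16, 3 and 57 paternal counts of 2704, 3750 and 2555. Its paternal share was 0.592% (0.365 to 0.959), 0.08% (0.0272 to 0.235) and 2.23% (1.73 to 2.88). For both genes the interval of embryo 3 lay above those of the other embryos. *Mirg*, host of a large miRNA cluster, had 9 paternal counts of 136, 0 of 363 and 6 of 196, or 6.62% (3.52 to 12.1), 0 and 3.06% (1.41 to 6.52). The intervals of embryos 1 and 3 overlap, and by the limit of 3 counts the 0 of 363 in embryo 2 allows a share of up to 0.826% (Wilson upper bound 1.05%). Embryo 3 thus did not stand out for *Mirg*.

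For scale, genes on the X chromosome of embryo 1 were read almost wholly from the maternal allele. There, 1037 paternal counts stood beside 195894 maternal counts over 997 genes without *Xist*, a paternal share of 0.527% (0.496 to 0.56). Of 258 of these genes with at least 100 counts, 251 had under 1% paternal counts. In embryos 2 and 3 the paternal share over the 997 genes was 17.3% and 34.0%, so only embryo 1 gives such a scale. The intervals of *H19* in all 3 embryos, of *Meg3* and *Rian* in embryo 3 and of *Mirg* in embryos 1 and 3 lay above the 0.527% of embryo 1. The maternal share of counts over all genes was 52.7% in embryo 1, 60.5% in embryo 2 and 51.8% in embryo 3, and the median autosomal gene had 51.3%, 58.1% and 51.3%.

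The embryos also differed in their marker genes. A sum over 5 erythroid markers was 3837 allelic CPM in embryo 1, 14 in embryo 2 and 4.57 in embryo 3, and a sum over 6 heart markers was 1893, 62.6 and 150. A sum over 8 markers of visceral endoderm and yolk sac was 143, 2605 and 1072. Counts of 5 decidual markers came from the maternal allele at 43.8%, 86.4% and 46.7%, with 0 paternal counts of *Prl8a2* or *Prl3c1* in any embryo. Of 7 trophoblast markers 0, 2 and 1 were detected. The part of these differences in the shares and levels above was not tested, and fewer cells of a type cannot be told from less RNA per cell.

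The alleles were compared over 10805 genes in edgeR (quasi-likelihood test, embryo as a block, Benjamini-Hochberg adjustment), with adjusted p under 0.05 and a fold over 2 as the call. Of the 6 genes, *Dlk1* passed, with a log2 ratio of maternal to paternal counts of -3.23 (SE 0.252, adjusted p = 0.0261), against 0.546% of all genes in either direction and 0.139% with more paternal counts. The ratio was 4.30 (SE 1.11, adjusted p = 0.197) for *H19*, -5.30 (SE 1.09, adjusted p = 0.161) for *Igf2* and 5.36 (SE 0.968, adjusted p = 0.136) for *Mirg*. For *Meg3* it was 7.34 (SE 0.984) and for *Rian* 7.23 (SE 0.957), each with adjusted p = 0.0823. Each of the 6 ratios had the same sign in 3 of 3 embryos. The 4 positive and 2 negative ratios follow from which genes were listed, and the median over all genes was 0.235. DESeq2 called all 6, at adjusted p from 6.96e-22 (*Dlk1*) to 0.00504 (*Mirg*), among 462 calls or 4.28% of all genes, so the number that passed depended on the test. In edgeR, *Dlk1* did not pass without embryo 2 (adjusted p = 0.0998) or without embryo 3 (adjusted p = 0.254), while all 6 passed without embryo 1, where 291 of 11230 genes (2.59%) were called in all.

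Taken by size instead, the more used allele gave at least 80% of counts, as a mean over the embryos, in 6 of 6 of these genes and in 4.28% of 10805 genes. Genes of the maternally methylated domains, whose imprints are normally set in the oocyte, were measured the same way. Of the 16 measured among 19 that are normally paternally expressed, 0 reached 80% by that mean, and 10 had a mean maternal share between 40% and 60%. Single embryos went further. In embryo 1 the paternal share was 96.0% for *Ndn*, 100% for *Magel2*, 90.7% for *Mkrn3* and 90.1% for *Peg12*. In embryos 2 and 3 the paternal share of these genes lay between 21.1% and 73.4%. Both measured genes of 7 that are normally maternally expressed also lay between 40% and 60%. *Peg3*, a zinc finger gene of the first group, had 50.9%, 48.5% and 48.1% maternal counts. *Peg10*, a retrotransposon-derived gene needed for the placenta, had 51.2%, 9.97% and 50.1%, so embryo 2 stood apart. *Mest*, a paternally expressed gene, had 51.6%, 48.3% and 59.1%, and *Grb10*, a growth-restraining adaptor, 25.8%, 73.0% and 54.8%. *Igf2r*, which clears IGF2 from the cell surface, had a mean maternal share of 56.5% ± 13.8 (SD, n = 3).

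Around the domains, 14 of 25 neighbouring genes had at least 10 allelic counts in every embryo, and 9 of them had a mean maternal share between 40% and 60%. *Mrpl23*, a mitochondrial ribosomal protein gene next to *H19*, was the neighbour that passed in edgeR, with 1, 2 and 2 maternal counts of 121, 104 and 122. Its log2 ratio was -5.99 (SE 0.414, adjusted p = 0.0213), beside 0.546% of all genes called. DESeq2 called *Mrpl23* and *Igf2os* among the neighbours, beside 4.28% of all genes. *Begain*, upstream of *Dlk1*, had 13 of 38, 0 of 18 and 3 of 12 counts from the maternal allele, a mean of 19.7% ± 17.7 (SD, n = 3), and did not pass (adjusted p = 0.349). Of the genes of the IGF pathway 13 of 18 were tested and of the Notch pathway 10 of 14. Of Ras exchange 11 of 12 were tested and of imprint maintenance 8 of 12. In edgeR 0 of these 42 tests passed in either direction, with 4 at an unadjusted p under 0.05 and 1 call (*Insr*) by DESeq2. Over all genes 0.546% were called by edgeR and 4.28% by DESeq2, so these counts say nothing particular to the lists. In the IGF list, the ratio for *Insr*, the insulin receptor, was 1.04 (SE 0.218, unadjusted p = 0.00557, adjusted p = 0.161). *Insr*, *Begain*, *Igf2os* and *Rtl1*, and above *Ndn*, *Magel2*, *Mkrn3* and *Peg12*, are named after their values were seen.

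In oocytes these genes were expressed at low levels or not detected. *Igf2*, *Meg3* and *Rasgrf1* had counts in 52 of 52 libraries, and *Rian* in 51. *Mirg* had counts in 33 libraries, *H19* in 20 and *Dlk1* in 13, with at most 25, 8 and 8 counts in a library. These 3 did not pass the filter on low counts and were not tested. A library without a count allows up to 3 counts, or 0.126 CPM (the count scaled to the library total) in the deepest library and 0.383 CPM in the shallowest.

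Per kilobase of exon, wild-type FGOs (n = 18) held 0.475 ± 0.254 CPM (SD) of *Igf2*, 0.461 ± 0.14 of *Meg3*, 0.225 ± 0.111 of *Rian* and 0.148 ± 0.101 of *Rasgrf1*. *Mirg* stood at 0.0409 ± 0.0314, *H19* at 0.0396 ± 0.0538 and *Dlk1* at 0.0115 ± 0.0262. In this order, each gene lay within the SD of its neighbour except *Meg3* above *Rian* and *Rasgrf1* above *Mirg*.

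**Figure D3:**
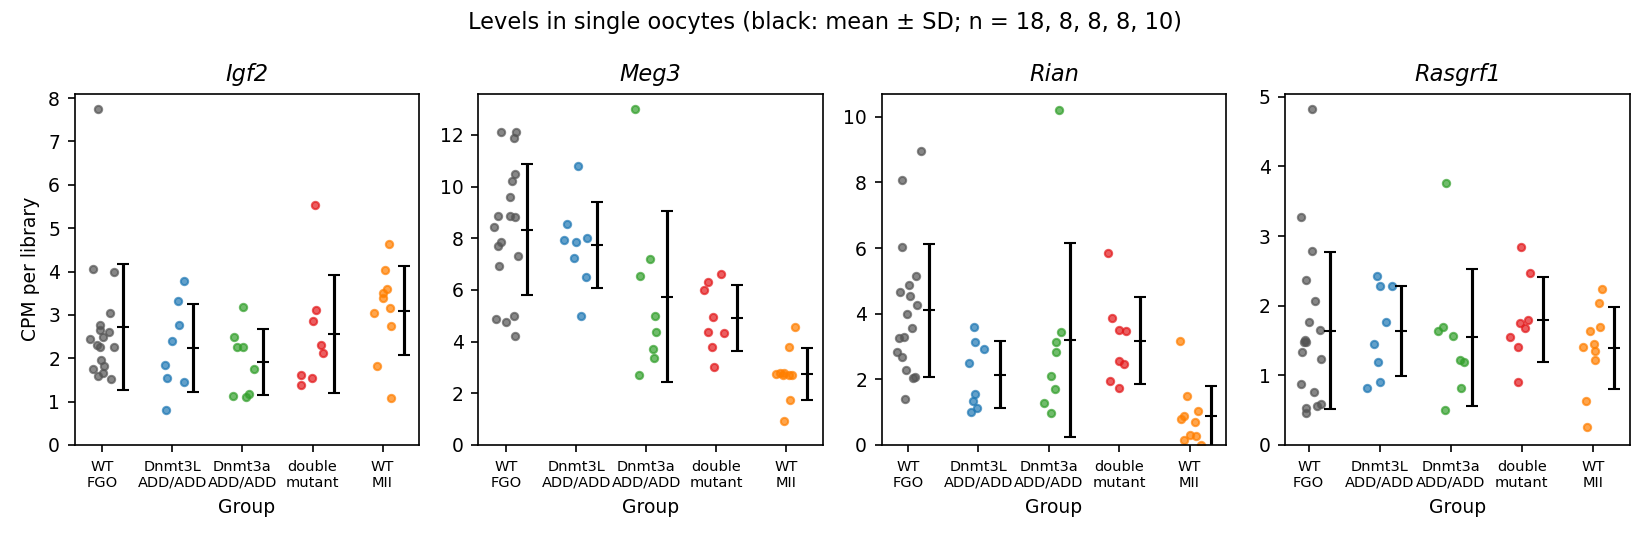
Level of 4 genes in CPM (vertical axis) in each single oocyte library, by group, with the mean ± SD in black (n = 18, 8, 8, 8 and 10). *Meg3* lies between 4.2 and 12.1 in wild-type FGOs and between 0.909 and 4.57 in MII oocytes.

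*Igf2* ranged from 1.53 to 7.76 CPM in wild-type FGOs, with a median of 2.37. It ranged from 1.39 to 5.54 in double mutants (median 2.21), from 1.11 to 3.18 in *Dnmt3a* ADD/ADD FGOs (median 2.01) and from 0.815 to 3.79 in *Dnmt3L* ADD/ADD FGOs (median 2.12). MII oocytes had 1.09 to 4.64, with a median of 3.27. The groups overlap throughout. The log2 fold change against wild-type FGOs by edgeR was -0.10 (SE 0.267, adjusted p = 0.837) in double mutants, -0.51 (SE 0.276, adjusted p = 0.207) in *Dnmt3a* ADD/ADD and -0.28 (SE 0.272, adjusted p = 0.568) in *Dnmt3L* ADD/ADD FGOs. In double mutant FGOs its 95% interval was -0.62 to 0.43.

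*Rasgrf1*, an exchange factor that activates Ras, had a median of 1.48 CPM in wild-type FGOs (range 0.456 to 4.82), 1.72 in double mutants (0.904 to 2.85), 1.39 in *Dnmt3a* ADD/ADD (0.506 to 3.76), 1.61 in *Dnmt3L* ADD/ADD (0.823 to 2.43) and 1.42 in MII oocytes (0.263 to 2.24). All groups overlap. Its log2 fold change lay between -0.23 and 0.12 in the 4 comparisons, with adjusted p from 0.583 to 0.997.

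*Meg3* ranged from 4.2 to 12.1 CPM in wild-type FGOs, with a median of 8.63. Its median was 4.66 in double mutants (3.03 to 6.62), 4.68 in *Dnmt3a* ADD/ADD (2.7 to 13), 7.9 in *Dnmt3L* ADD/ADD (5.01 to 10.8) and 2.73 in MII oocytes (0.909 to 4.57). All 8 double mutant FGOs lay below the wild-type median and 2 lay below the wild-type minimum. Of the MII oocytes, 9 of 10 lay below the wild-type minimum. The log2 fold change by edgeR was -0.77 (SE 0.212, adjusted p = 0.0159) in double mutants, where the fold stayed under 2 and 12.2% of all genes had an adjusted p under 0.05. It was -0.53 (SE 0.208, adjusted p = 0.072) in *Dnmt3a* ADD/ADD and -0.11 (SE 0.204, adjusted p = 0.777) in *Dnmt3L* ADD/ADD.

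That difference moved with the wild-type libraries used. By the share of reads mapped in the study's summary of reads, the wild-type FGOs fall into 8 libraries under 80% and 10 at or above 80%, and all 8 double mutant FGOs are under 80%. *Meg3* averaged 7.05 ± 2.81 CPM (SD, n = 8) in the first and 9.37 ± 1.81 (SD, n = 10) in the second. Against wild-type FGOs of the same set, the change in double mutant FGOs was -0.52 (adjusted p = 0.427), and against the other set -0.93 (adjusted p = 0.000658). With the set as a covariate it was -0.68 (adjusted p = 0.127). Within 1 set the difference did not pass. The *Dnmt3a* ADD/ADD FGOs are mixed, with 3 libraries under 80% and 5 at or above it.

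*Rian* ranged from 1.4 to 8.95 CPM in wild-type FGOs, with a median of 3.77. Its median was 3.01 in double mutants (1.75 to 5.84), 2.46 in *Dnmt3a* ADD/ADD (0.975 to 10.2), 2.03 in *Dnmt3L* ADD/ADD (0.992 to 3.58) and 0.739 in MII oocytes (0 to 3.18). All 8 *Dnmt3L* ADD/ADD FGOs lay below the wild-type median. Its log2 fold change was -0.38 (SE 0.316, adjusted p = 0.445) in double mutants, -0.33 (SE 0.314, adjusted p = 0.498) in *Dnmt3a* ADD/ADD and -0.93 (SE 0.331, adjusted p = 0.0818) in *Dnmt3L* ADD/ADD. *Rian* too differed between the wild-type sets, with 5.48 ± 2.14 CPM (SD, n = 8) under 80% and 3.01 ± 1.07 (SD, n = 10) at or above it. The change in *Dnmt3L* ADD/ADD FGOs, all at or above 80%, was -0.47 (adjusted p = 0.479) within its set and -1.34 (adjusted p = 0.0102) against the other set.

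**Figure D4:**
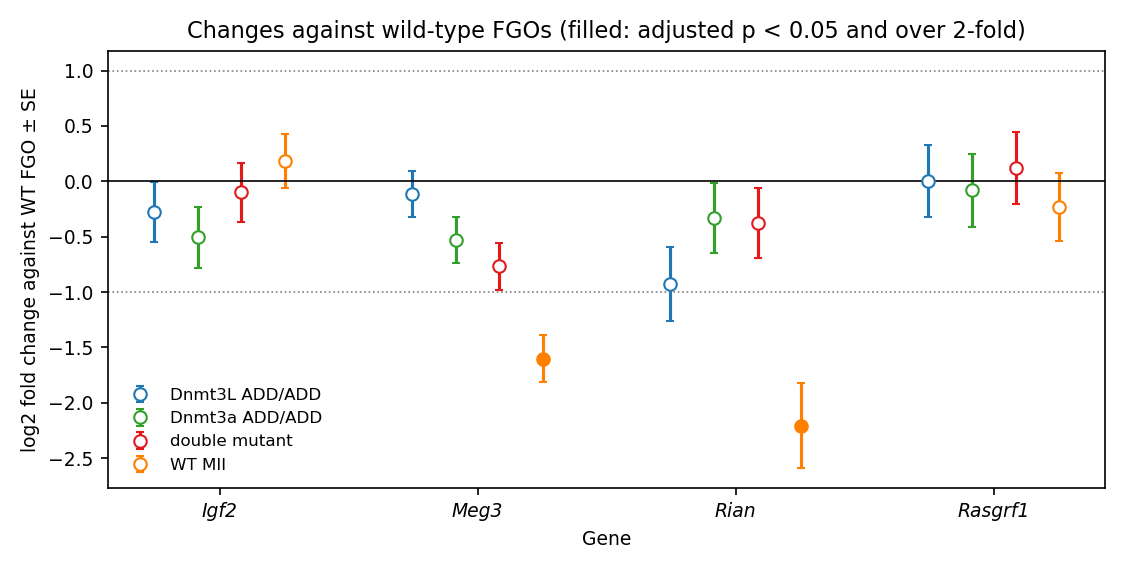
The log2 fold change against wild-type FGOs (vertical axis, ± SE) of 4 genes in FGOs of the 3 mutant genotypes and in MII oocytes, with dotted lines at a 2-fold change. Filled points, adjusted p under 0.05 and over 2-fold, are *Meg3* (-1.60) and *Rian* (-2.20) in MII oocytes.

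Of the 4 genes tested, 0 passed in edgeR with a fold over 2 in double mutants, 0 in *Dnmt3a* ADD/ADD and 0 in *Dnmt3L* ADD/ADD. Over 15726 genes, 1.65%, 2.05% and 0.655% passed in the same order. At an unadjusted p under 0.05 the count was 1 (*Meg3*), 1 (*Meg3*) and 1 (*Rian*), and DESeq2 also called 0, 0 and 0. The median change of the 4 was -0.24, -0.42 and -0.20, beside -0.01, -0.03 and -0.03 over all genes. The 3 comparisons share the wild-type FGOs. 1 library weighed on the *Dnmt3a* ADD/ADD group, since replicate 8 had its highest *Meg3* (13 CPM), *Rian* (10.2 CPM) and *Mirg* (1.39 CPM). Without it the change was -0.83 (adjusted p = 0.00421) for *Meg3* and -0.88 (adjusted p = 0.0433) for *Rian*, both still under 2-fold.

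The non-additive effect, the change in double mutant FGOs beyond the sum of the changes in the single mutants, passed in 0 of the 4 genes in edgeR, while 35.6% of all genes passed. It was 0.69 (SE 0.419, adjusted p = 0.205) for *Igf2*, 0.88 (SE 0.491, adjusted p = 0.16) for *Rian*, 0.20 (SE 0.509, adjusted p = 0.793) for *Rasgrf1* and -0.12 (SE 0.316, adjusted p = 0.794) for *Meg3*. At an unadjusted p under 0.05 the count was also 0, as it was for calls by DESeq2. The effect on *Rian* was 1.43 (adjusted p = 0.0113) without *Dnmt3a* ADD/ADD replicate 8, 1.52 (adjusted p = 0.0184) with the replicate number as a block and -0.02 (adjusted p = 0.988) with the library set as covariate. Whether *Rian* passed, and its sign, thus depended on the setting.

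In wild-type MII oocytes against wild-type FGOs, 2 of the 4 genes fell, while 9.2% of 15784 genes passed and 9% were lower. *Meg3* fell by 1.60 on the log2 scale (SE 0.21, adjusted p = 2.47e-08), being lower than the wild-type FGO median in 10 of 10 MII libraries. *Rian* fell by 2.20 (SE 0.383, adjusted p = 9.33e-06), also below that median in 10 of 10. Both passed against either set of wild-type FGOs, at -1.35 and -1.75 for *Meg3* and -2.61 and -1.74 for *Rian*. The change was 0.18 (SE 0.24, adjusted p = 0.573) for *Igf2* and -0.23 (SE 0.307, adjusted p = 0.583) for *Rasgrf1*. *Mirg*, not tested, had counts in 15 of 18 wild-type FGOs and 2 of 10 MII oocytes, and *H19* in 9 of 18 and 1 of 10.

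Markers of the cells around the oocyte differed between these groups, but not all lists in the same way. Over all genes, 9% were lower in MII oocytes, and 1.65% were called in double mutants, 2.05% in *Dnmt3a* ADD/ADD and 0.655% in *Dnmt3L* ADD/ADD FGOs. Of 10 granulosa markers, 7 were lower in MII oocytes, 7 in double mutants, 5 in *Dnmt3a* ADD/ADD and 2 in *Dnmt3L* ADD/ADD. Their summed level was 115 to 201 CPM in wild-type FGOs, 102.7 to 124 in MII oocytes, and 110 to 138, 108 to 163 and 106 to 144 in the mutants in that order. In MII oocytes *Inhbb* and *Amh* were at 0 in all 10 libraries. Of 7 theca and interstitial markers 5 were tested, and 5, 5, 2 and 2 were lower, and their summed level was 14.6 to 147 CPM in wild-type FGOs, 2.09 to 6.05 in double mutant FGOs and 2.18 to 12.5 in MII oocytes. Of 9 stroma and muscle markers 7 were tested, of which 4 were lower in double mutant FGOs and 4 in MII oocytes. *Dnmt3a* ADD/ADD FGOs had 1 higher and 1 lower, and *Dnmt3L* ADD/ADD FGOs had 0 calls. The sums were 222 to 451 CPM in wild-type FGOs, 215 to 301 in double mutant FGOs and 325 to 451 in MII oocytes. Most of these sums was *Myh11*. In *Dnmt3a* ADD/ADD FGOs the sum was 339 to 457 CPM, and in *Dnmt3L* ADD/ADD FGOs 289 to 471. Of 7 endothelium and blood markers 3 were tested, with 0 called in these groups. Their sums were 80.7 to 123.3 CPM in wild-type FGOs, 66.9 to 98.1 in double mutants and 107 to 135.3 in MII oocytes. They were 107.5 to 164.8 in *Dnmt3a* ADD/ADD and 100 to 124.2 in *Dnmt3L* ADD/ADD FGOs. The oocyte markers summed to 7081 to 11136 CPM in wild-type FGOs, 10037 to 11404 in double mutants and 7096 to 7661 in MII oocytes. They summed to 6376 to 8272 in *Dnmt3a* ADD/ADD and 6913 to 9045 in *Dnmt3L* ADD/ADD FGOs. The labelled cell type was thus present in all, though the sums differed between groups. The part of attached cells in the levels of *Meg3* and *Rian* was not tested.

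The genes whose log2 CPM followed the members most closely over the 42 FGOs were taken by Pearson's r, as a description. For *Meg3* they were *Inhbb* (r = 0.77), a subunit of inhibin and activin made by granulosa cells, *Klhl23* (0.732) and *Helz2* (0.713). For *Rian* they were *Tia1* (0.818), an RNA-binding protein, *Gm12940* (0.793) and *Gm36989* (0.762). *Igf2* was nearest to *Khdrbs3* (0.604), *Rps18* (0.514) and *Dpysl5* (0.504), and *Rasgrf1* to *Gphb5* (0.663), *Dnah2* (0.646) and *Luc7l2* (0.643). Among the members the highest r was 0.559, between *Rian* and *Mirg*, and *Meg3* and *Rian* had 0.317. These libraries share kits, depth and genotype groups, so the values rank genes and test nothing.

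Of the IGF pathway, 14 of 18 genes were tested in FGOs. The ligand *Igf1* had 2.64 ± 1.49 CPM (SD, n = 18) among wild-type FGOs and 0.501 ± 0.396 (SD, n = 10) in MII oocytes, where it fell by 2.38 on the log2 scale (SE 0.382, adjusted p = 2.23e-06). The binding proteins *Igfbp3* and *Igfbp5*, which hold IGFs outside the cell, fell in *Dnmt3a* ADD/ADD FGOs, with log2 changes of -1.36 (SE 0.454, adjusted p = 0.0346) and -1.22 (SE 0.386, adjusted p = 0.026). These calls are from the fit without the library set. *Igfbp3* ranged from 0.178 to 4.32 CPM in wild-type and from 0.126 to 1.39 in *Dnmt3a* ADD/ADD FGOs. For *Igfbp5* the ranges were 4.44 to 39.5 and 3.39 to 30.5, so both genes overlap. In MII oocytes their changes were -1.40 (SE 0.428, adjusted p = 0.00775) and -1.86 (SE 0.382, adjusted p = 0.000132). The adaptors *Irs1* and *Irs2*, which pass on receptor signals, fell there too, with changes of -1.97 (SE 0.6, adjusted p = 0.00734) and -1.78 (SE 0.62, adjusted p = 0.0193). The list thus had 0 called genes in double mutants, 2 lower in *Dnmt3a* ADD/ADD, 0 called in *Dnmt3L* ADD/ADD and 5 lower in MII oocytes. Over all genes 1.65%, 2.05% and 0.655% were called in the mutants in that order, and 9% were lower in MII oocytes. The 0 counts stood beside 4 and 2 genes at an unadjusted p under 0.05, and DESeq2 called *Igfbp3* in double mutants, where it was higher (2.64 ± 2.02 CPM, SD, n = 8, against 1.23 ± 1.1, n = 18) with a log2 change of 1.09 in edgeR (SE 0.379, adjusted p = 0.0506). Its median change was -0.06, 0.07, -0.11 and -0.24. The receptors *Igf1r* (83.9 ± 12.2 CPM) and *Igf2r* (233 ± 28.1 CPM) in wild-type FGOs, named after their values were seen, were 84.7 ± 9.63 and 225 ± 17.7 in double mutant FGOs (SD, n = 18 and 8).

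Of 13 tested neighbours in FGOs, *Dio3*, the thyroid hormone-inactivating enzyme at the far end of the *Dlk1*-*Meg3* domain, was the one called by edgeR. It ranged from 0.393 to 11.2 CPM in wild-type FGOs (median 1.16) and from 0.334 to 0.894 in *Dnmt3a* ADD/ADD (median 0.635), where it fell by 2.04 (SE 0.632, adjusted p = 0.0233). In double mutant FGOs it ranged from 0.299 to 9.22 (median 2.58) and in MII oocytes from 0.199 to 1.01 (median 0.402), where it fell by 2.53 (SE 0.565, adjusted p = 0.000375). In *Dnmt3L* ADD/ADD FGOs it ranged from 0.225 to 1.14 (median 0.887), with a log2 change of -1.79 (SE 0.623, adjusted p = 0.0737) that DESeq2 called. The wild-type range covers that of all other groups except the lowest values. The *Dio3* calls are from fits without the library set. Beside the calls in this and the following lists, 1.65% of all genes were called in double mutants, 2.05% in *Dnmt3a* ADD/ADD and 0.655% in *Dnmt3L* ADD/ADD FGOs. In MII oocytes 9% were lower. Of the Notch pathway, to which *Dlk1* is related, *Dll1*, a ligand, fell by 1.59 in MII oocytes (SE 0.603, adjusted p = 0.0318), and 0 of 9 tested genes were called in the mutants by edgeR, with 2, 1 and 2 at an unadjusted p under 0.05 in double mutants, *Dnmt3a* ADD/ADD and *Dnmt3L* ADD/ADD and 1 DESeq2 call (*Dll1* in *Dnmt3a* ADD/ADD). Of 9 tested genes of Ras exchange and 11 of imprint maintenance, 0 were called with a fold over 2 in the mutants or in MII oocytes. At an unadjusted p under 0.05 the Ras list had 5 genes in double mutants, 2 in *Dnmt3a* ADD/ADD, 1 in *Dnmt3L* ADD/ADD and 3 in MII oocytes, the imprint list 3, 2, 3 and 7, and DESeq2 called 0 in each. *Dnmt1*, which copies methylation at replication, had 4098 ± 435 CPM in wild-type FGOs and 3746 ± 249 in double mutant FGOs (SD, n = 18 and 8). *Zfp57*, which keeps imprints methylated, had 1475 ± 208 and 1327 ± 133, and *Rasa1*, which switches Ras off, 167 ± 11.3 and 169 ± 11. The non-additive effect passed in 5 of 13 neighbours, 4 of 14 genes of the IGF pathway, 1 of 9 of the Notch pathway, 4 of 9 of Ras exchange and 2 of 11 imprint factors, beside 35.6% of all genes, so these counts say nothing particular to the lists. With the library set as covariate 2226 of 15726 genes passed in place of 5601. Among the 5601 that passed without the covariate were *Dio3* (4.21, SE 0.935, adjusted p = 0.000633), *Igfbp3* (3.25, SE 0.671, adjusted p = 0.00029) and *Sos1*, an exchange factor for Ras (1.45, SE 0.298, adjusted p = 0.000268). These values are from the fit without the covariate.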

How the data were processed

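Single oocytes were sequenced with the SMART-Seq HT kit and embryos as directional polyA libraries. The authors aligned reads to mm10 with STAR and deposited raw counts per gene, and for embryos allele-specific counts in a maternal and a paternal table. The methods name featureCounts and HTSeq; the annotation release, the strand and multimapper settings and the allele assignment tool are not given in the sources used here. In the embryo files, the other 8 value columns are those of wild-type embryos, which matched no sample label and were not used.

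The main test was the quasi-likelihood test of edgeR 4.0.16 in R 4.3.3, with TMM factors, the filterByExpr filter (minimum count 10) and Benjamini-Hochberg adjustment. FGOs entered 1 fit of 42 libraries, and MII oocytes 1 fit of all 52. Embryo genes needed 10 allelic counts in every embryo. CPM used TMM factors over all oocytes. DESeq2 1.42.0 was an alternative. On simulated data 200 of 200 changed genes were recovered with 0 wrong calls, in double mutant against wild-type FGOs (4-fold, 15726 genes) and between alleles (10805 genes). Each simulation gave all genes the same spread, and the more used allele had 95% of counts in every simulated embryo. In the real embryos the shares of *H19* and *Igf2* differed, so the simulation does not measure the power of the test for them. No 2 libraries of a group agreed within counting noise.

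The members and lists were chosen with earlier results of these data known. The genes named were the members, list genes that passed or else the 3 with the highest level, the 3 genes of the other domains with most allelic counts and the 3 nearest patterns. Further genes, among them *Ndn*, *Magel2*, *Mkrn3* and *Peg12*, were named after their values were seen. Values of 1 listed gene are not reported here.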

Additional observations from a re-analysis of the deposited data

How the results depend on the processing

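Calls among the members in oocytes changed under few alternatives. In *Dnmt3L* ADD/ADD FGOs 1 member (*Rian*) passed against wild-type FGOs under 80% mapped reads, where 615 genes were called in all against 103. Without a minimum fold change 1 (*Meg3*) passed in double mutant FGOs. The non-additive count was 1 (*Rian*) without *Dnmt3a* ADD/ADD replicate 8, an alternative chosen after seeing the data, where 5484 of 15846 genes passed in all. DESeq2, RLE factors, no filter and the library set as covariate left the number of members called unchanged in all 5 oocyte comparisons.

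The replicate numbers shared between groups did not pair the libraries, since same-numbered libraries correlated at -0.518 to 0.471, with 14 of 82 pairs over 0.1 and 9 of 82 best with their own number. With the replicate block *Rian* was the 1 member to pass in the non-additive effect, the 1 to pass in *Dnmt3a* ADD/ADD and the 1 to pass in *Dnmt3L* ADD/ADD, while 0 passed in double mutants and 2 in MII oocytes. Over all genes the block gave 6491, 720, 442, 128 and 1706 calls in the same order, against 5601, 322, 103, 260 and 1452 in the main fit.

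In the embryos, 3 members passed with TMM per allelic column (99 of all genes, against 59 in the main test), 6 with DESeq2 (462), 3 with no filter beyond 1 count (94) and 2 with no replicate block (70); leaving out 1 embryo gave 0 to 6 (0 to 291). Without embryo 3, 0 genes of all passed in edgeR, with 943 at an unadjusted p under 0.05. Of 48 alternative ratios between alleles, 0 changed sign. Mean maternal shares moved by less than 1 SD in every alternative. For leaving out 1 of 3 embryos this was fixed in advance, since such a step cannot move a mean by 1 SD. Without embryo 3 the means of *H19* and *Igf2* changed as given above. Scaled to an autosomal median of 50%, *H19* was 89.3% and *Igf2* 4.45%.

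Some changes that had not passed changed sign. With the block, *Meg3* was 0.15 in *Dnmt3L* ADD/ADD, and *Rasgrf1* 0.38 in *Dnmt3a* ADD/ADD, 0.09 in MII and -0.28 in the non-additive effect. Against wild-type FGOs under 80%, *Meg3* was 0.13 in *Dnmt3L* ADD/ADD, and *Rasgrf1* 0.27 in *Dnmt3a* ADD/ADD and 0.13 in MII. Against those at or above 80%, *Rasgrf1* was -0.10 in double mutants and -0.21 in *Dnmt3L* ADD/ADD, *Rian* 0.08 in double mutants and 0.13 in *Dnmt3a* ADD/ADD, and *Igf2* 0.08 in double mutants. With the set as covariate, *Rasgrf1* was -0.19 in *Dnmt3L* ADD/ADD, and the non-additive effect 0.01 for *Meg3* and -0.02 for *Rian*. Without *Dnmt3a* ADD/ADD replicate 8 that of *Meg3* was 0.18. The cause was not tested. Depth limits *H19*, *Dlk1* and *Mirg* in oocytes, and *Rasgrf1* in embryos.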
